A study of Mus musculus with 22 samples.

Results

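The 10 circadian clock genes Clock, Per1, Per2, Per3, Cry1, Cry2, Nr1d1, Nr1d2, Dbp and Tef were followed in pancreatic islets of 22 male mice aged 5.5 weeks. They were taken by symbol from a table of 57010 gene rows, where each occurred, and all 10 passed the filter on low values, as did 16756 rows in all. Values are TPM (transcript abundance scaled to gene length and to the library total), a unit that keeps no read depth, so that the depth behind each value is unknown. One library was made from the islets of each mouse. The age of 5.5 weeks is that of the series design, and the column headings of the values give 5 to 6 weeks for all groups. The mice were wild type for MafA (WT) or carried the S64F change in MAFA in heterozygous form as labelled (Het). MAFA is a beta cell factor that drives insulin transcription. Each genotype was present on a background labelled C57 (5 WT and 6 Het mice) and on one labelled Mixed (5 WT, 6 Het). No treatment is labelled for any group. The strains behind the Mixed background and the time of day at which islets were collected are not given in the sources used here.

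The circadian clock is a feedback loop of transcription that runs in most mammalian cells, islet cells included, with a period of about a day. CLOCK pairs with BMAL1 (gene Arntl) and switches on genes that carry an E-box, among them the Per and Cry genes, whose proteins return to repress CLOCK and BMAL1. In a second arm, the nuclear receptors made by Nr1d1 and Nr1d2 (REV-ERB alpha and beta) repress Arntl. Dbp and Tef encode factors that bind the D-box and carry the rhythm to further genes. In islets the clock is known to pace insulin secretion. A single time point gives no rhythm, and transcripts of this loop can be high or low according to the hour.

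Motifs that the loop is known to use were searched in promoter windows of the members from RefSeq (GRCm38.p6), the 250 bases before each start. Of the 10 genes, 9 were found in that table, with 13 start windows in all. Per2 was not. The letters searched on both strands were CACGTG for the E-box, CACGTT for its weaker variant, TTATGTAA and TTATGCAA for the D-box, and TAGGTCA and TGGGTCA for the core bound by ROR and REV-ERB receptors. No 2 of these matches overlapped. The windows shown are those of the period gene with the highest level, of the member that rose in Het islets of both backgrounds, of the receptor gene that fell in both, and of a period gene with more than 1 D-box. Capitals mark the matches.
Per1, chr11:69098699-69098948, plus strand: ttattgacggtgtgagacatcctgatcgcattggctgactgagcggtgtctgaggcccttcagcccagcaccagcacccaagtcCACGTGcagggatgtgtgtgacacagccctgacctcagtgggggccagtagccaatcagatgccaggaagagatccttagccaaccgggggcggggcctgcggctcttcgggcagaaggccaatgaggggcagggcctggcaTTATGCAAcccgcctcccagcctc
Cry1, chr10:85185055-85185304, minus strand: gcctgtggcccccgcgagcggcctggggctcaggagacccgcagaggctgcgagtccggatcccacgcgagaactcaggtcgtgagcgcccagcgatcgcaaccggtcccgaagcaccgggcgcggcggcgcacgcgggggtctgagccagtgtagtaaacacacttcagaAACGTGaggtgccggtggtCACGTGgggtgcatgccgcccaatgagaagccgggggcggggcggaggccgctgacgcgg
Nr1d1, chr11:98775378-98775627, minus strand: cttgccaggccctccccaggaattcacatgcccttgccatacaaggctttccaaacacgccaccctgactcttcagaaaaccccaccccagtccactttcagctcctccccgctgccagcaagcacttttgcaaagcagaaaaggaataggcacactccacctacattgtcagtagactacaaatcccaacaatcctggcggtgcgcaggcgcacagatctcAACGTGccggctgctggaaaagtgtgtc
Per3, chr4:151044666-151044915, minus strand: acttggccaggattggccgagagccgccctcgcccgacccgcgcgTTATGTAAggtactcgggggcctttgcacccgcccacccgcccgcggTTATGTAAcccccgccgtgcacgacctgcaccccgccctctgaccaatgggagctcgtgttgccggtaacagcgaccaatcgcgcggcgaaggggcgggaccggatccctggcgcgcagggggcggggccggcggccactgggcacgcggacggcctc
The E-box lay 166 bases before the start in Per1 and 60 bases before it in Cry1, and 1 further E-box lay in each of the 2 windows of Tef. This motif was present in 6.02% of the 32851 windows in the table. The variant was found in Cry1, Cry2 and Nr1d1, against 3.85% of all windows. The D-box occurred once in Per1, 24 bases before the start, and at 2 places in Per3, against 1.5% of all windows. The receptor core was found in 5.38% of all windows and in 0 of the 13 member windows. No match lay in the second window of Per1 or in any window of Clock, Dbp or Nr1d2. A match is a description of the letters and not a bound site. Only these exact letters in the 250 bases were searched, so that no match does not mean that a gene lacks the element.

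The members covered a wide range of levels per length. Over the 22 mice, Per1 was highest at a mean of 144 TPM (lowest 63.1, highest 399), above 97.1% of the genes tested, followed by Nr1d1 at 126 TPM (above 96.6%) and Cry2 at 95.7 TPM. Nr1d2 (39.5 TPM), Dbp (36.4 TPM), Per2 (31.4 TPM), Clock (21.1 TPM) and Tef (18.2 TPM) were intermediate. Cry1 (10.4 TPM) and Per3 (8.12 TPM) were lowest, near the middle of all genes tested. The order differed by group: Nr1d1 led in C57 WT islets, and Per1 led in the other 3 groups. Neighbours in the order mostly overlapped between mice. The ranges were separate only between Cry2 and Dbp in C57 WT, between Tef and Cry1 in C57 Het, between Nr1d2 and Clock and between Tef and Cry1 in WT mice on Mixed, and between Cry2 and Nr1d2 and between Tef and Per3 in Het mice on Mixed.

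Before the members, the targeted gene was examined, and the libraries were compared as a whole. Mafa mRNA averaged 441 TPM (WT) against 117 TPM (Het) on C57, and 598 TPM against 152 TPM on Mixed, with no overlap between the genotypes on either background. Between 14812 and 16133 genes reached 1 TPM in a sample, 0 pairs of libraries were identical, and correlations between libraries lay between 0.904 and 0.990. Islet markers were present in every library, and of all markers examined only Cftr of duct cells stayed under 1 TPM throughout, at 0.982 TPM or less. Cell type markers differed between genotypes. The 6 beta cell markers took 36.8 to 44.8% of TPM in WT and 32.2 to 37.6% in Het mice on C57. On Mixed they took 39.8 to 47.5% against 24.8 to 34.0%. Most of this sum was Ins1 and Ins2, with means of 132855 and 260458 TPM in C57 WT. Gene by gene, 1 of 6 beta markers passed lower on C57 and 4 of 6 on Mixed, beside 11.6% and 13.5% of all genes. Mean Slc2a2 was 326 TPM (WT) and 345 TPM (Het) on C57, and mean Iapp 29407 and 35139 TPM on Mixed. All 5 alpha cell markers and all 3 delta cell markers were higher in Het on both backgrounds. All 5 tested immune markers and 4 of 5 mesenchymal markers were higher in Het on the Mixed background, and 0 of either list on C57. Of the 6 acinar markers, 5 were higher in Het on C57 and 1 on Mixed. Of the 4 tested duct markers, 1 was higher on C57 and 4 on Mixed. Over all genes 26.4% were higher in Het on C57 and 30.7% on Mixed. The mitochondrially encoded share was 4.27 to 9.76% in WT and 3.86 to 4.39% in Het mice on C57, and 4.37 to 9.76% against 2.80 to 4.06% on Mixed. The highest shares were those of C57 WT replicate 5 and Mixed WT replicate 4. The Mixed mouse was highest of its group in Per1, Per2, Cry2, Nr1d1 and Dbp, and the C57 mouse lowest of its group in Per1, Per2, Cry2 and Dbp. In bulk islets, fewer cells of a type and less RNA per cell cannot be told apart, and the part of these shares in the results that follow was not tested.

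On the Mixed background, most of the clock genes that changed in Het islets were repressor and output genes with less mRNA than in WT. On C57 as many rose as fell. On C57, Nr1d1 and Dbp fell and Clock and Cry1 rose. On Mixed, Per1, Per2, Cry2, Nr1d1, Nr1d2, Dbp and Tef fell and Cry1 rose. In the limma fit over all genes, 4 of the 10 members passed an adjusted p of 0.05 on C57 (2 higher, 2 lower), where 26.4% of all genes tested were higher and 11.6% lower. That count on C57 was near the share of all genes that passed there, 6362 of 16756. On Mixed, 8 of 10 passed (1 higher, 7 lower), where 30.7% of all genes were higher and 13.5% lower. The median log2 difference of the members, Het minus WT, was -0.09 on C57 and -0.99 on Mixed, beside 0.08 and 0.10 over all genes. The values of Het and WT mice did not overlap for 2 members on C57 (Clock and Nr1d1), where 21% of all genes were separate in this way, and for 4 on Mixed (Per2, Nr1d1, Nr1d2 and Dbp), where 23.6% were. Scaling moved the background of calls. With median-of-ratios scaling, 53.5% of calls on C57 and 48.9% on Mixed were higher in Het, against 69.5% and 69.5% on the deposited TPM, while the called members kept their signs under every scaling tried.

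**Figure D1:**
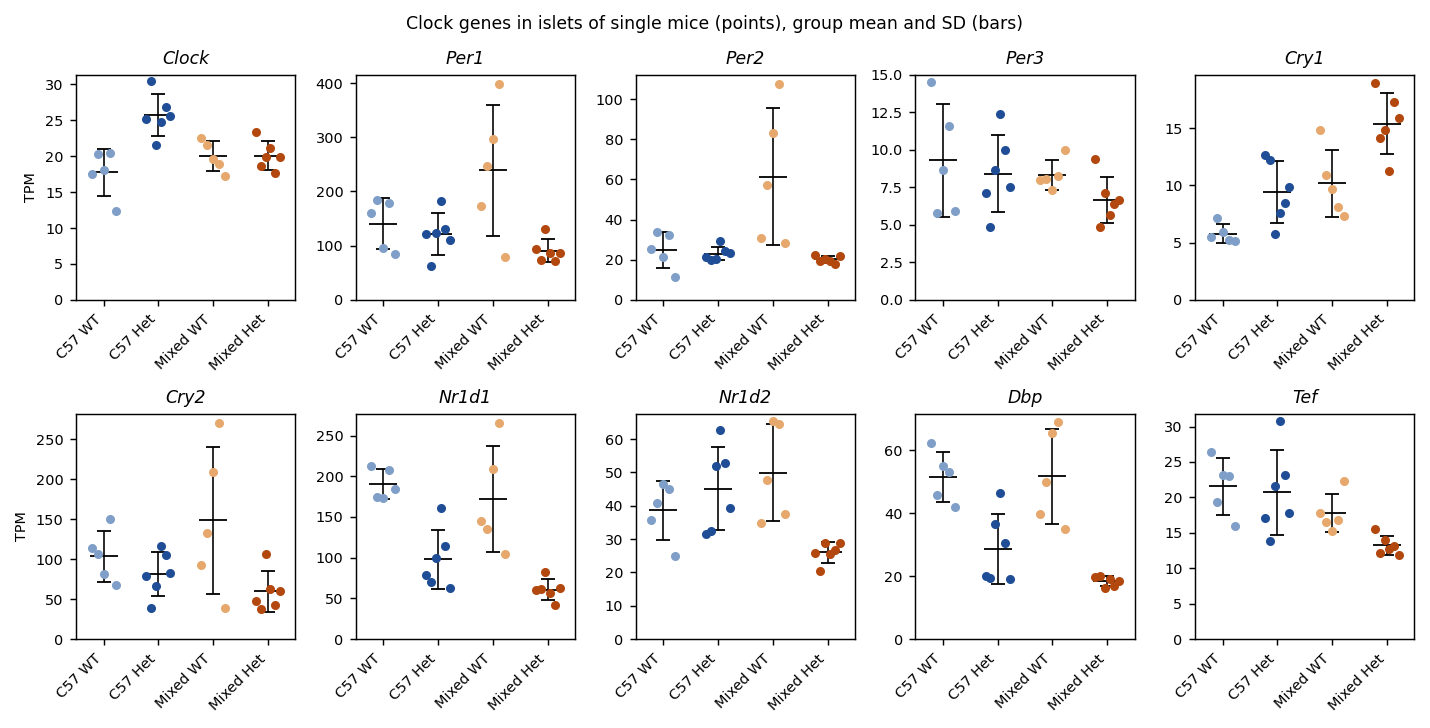
TPM of the 10 clock genes, 1 panel per gene with its own linear axis from 0, and 1 point per mouse in the 4 groups. Horizontal lines give the group mean and bars its SD. All 6 Mixed Het points of Per2, Nr1d1, Nr1d2 and Dbp lie below all 5 Mixed WT points, and the Mixed WT points of Per1, Per2 and Cry2 are widely spread.

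Clock, the activator, was higher in Het islets on the C57 background. C57 WT mice had 17.5, 20.4, 18.1, 20.5 and 12.4 TPM, and C57 Het mice ranged from 21.5 to 30.5 TPM with a median of 25.4. Every C57 Het mouse was above every C57 WT mouse. The group means were 17.7 ± 3.29 TPM (SD, n = 5) and 25.7 ± 2.92 TPM (SD, n = 6), a log2 difference of 0.52 (SE 0.11, limma adjusted p 0.000859). On Mixed the values of WT mice (22.6, 21.5, 19.6, 19.0 and 17.3 TPM) and Het mice (17.7 to 23.3, median 19.9 TPM) lay over each other, and the log2 difference of 0.01 had a 95% interval from -0.22 to 0.23. Its partner Arntl did not pass in either background: the means on C57 were 7.04 (WT) and 6.81 TPM (Het), and those on Mixed 9.86 and 9.39 TPM. Its log2 differences were -0.06 (95% interval -0.35 to 0.23) and -0.05 (-0.34 to 0.24).

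The 3 period genes encode the repressors that enter the nucleus with the cryptochromes, and Per1 and Per2 are also induced directly by outside cues. Per1 read 160.1, 183, 95.4, 178 and 85.2 TPM in C57 WT mice and 63.1 to 183 (median 123) TPM in C57 Het mice, so that the groups overlapped. On Mixed the WT mice read 173, 246, 297, 399 and 78.4 TPM, and the Het mice 72.3 to 131 (median 86.1) TPM. On Mixed the WT mean was 239 ± 122 TPM (SD, n = 5) and the Het mean 90.5 ± 21.5 TPM (SD, n = 6), or 37.9% of WT. This log2 difference was -1.23 (SE 0.32, limma adjusted p 0.00385), and only Mixed WT replicate 5 lay within the Het range. On C57 the difference was -0.19 (95% interval -0.86 to 0.47).

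Per2 was also lower in Het on Mixed, with no overlap between the genotypes. On C57 the WT mice had 25.5, 33.7, 21.1, 32.3 and 11.4 TPM, and C57 Het mice 19.9 to 29.1 (median 22.2) TPM. On Mixed the WT mice had 30.6, 57.2, 83.3, 108 and 28.1 TPM, and Mixed Het mice 17.8 to 22.5 (median 19.95) TPM, so that every Mixed Het mouse was below every Mixed WT mouse. The Mixed Het mean of 20.2 ± 1.74 TPM (SD, n = 6) was 32.9% of the WT mean of 61.4 ± 34.2 TPM (SD, n = 5), a log2 difference of -1.37 (SE 0.28, limma adjusted p 0.000466). On C57 it was -0.02 (95% interval -0.60 to 0.56). Per3, the period gene that is least needed for rhythm in mice, passed on neither background. It averaged 9.29 (WT) and 8.42 TPM (Het) on C57, and 8.32 and 6.68 TPM on Mixed, with log2 differences of -0.10 (95% interval -0.53 to 0.33) and -0.30 (-0.73 to 0.13). On Mixed, 5 of 6 Het mice were below all WT mice, and Het replicate 1 was at 9.39 TPM.

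The cryptochromes moved in opposite directions on Mixed. Cry1, the stronger repressor of CLOCK and BMAL1, was the only member that was higher in Het on both backgrounds. C57 WT mice had 5.45, 7.11, 5.95, 5.20 and 5.12 TPM and C57 Het mice 5.73 to 12.6 (median 9.18) TPM, with 5 of 6 Het mice above all WT mice. Mixed WT mice had 14.8, 10.9, 9.67, 8.11 and 7.36 TPM and Mixed Het mice 11.2 to 19.0 (median 15.3) TPM, with 4 of 6 above all WT mice. The Het mean was 163% of WT on C57 and 151% on Mixed. The log2 differences were 0.59 (SE 0.17, limma adjusted p 0.0113) and 0.57 (SE 0.17, limma adjusted p 0.0111). With the acinar marker score as a covariate these became 0.43 (limma adjusted p 0.152) and 0.46 (limma adjusted p 0.0741), and neither passed. On C57 the summed acinar markers ran from 157 to 307 TPM (WT) and 204 to 1269 TPM (Het), and on Mixed from 133 to 646 and 477 to 928 TPM.

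Cry2 was lower in Het on the Mixed background. Values in Mixed WT mice were 92.4, 132, 209, 269.8 and 39.0 TPM, and Mixed Het mice 37.2 to 107 (median 53.8) TPM. The means were 148 ± 91.9 TPM (SD, n = 5) and 59.5 ± 25.1 TPM (SD, n = 6). The Het mean was 40.1% of WT, and the groups overlapped through WT replicate 5 and Het replicate 3. The log2 difference was -1.11 (SE 0.38, limma adjusted p 0.0208). It did not pass without Mixed WT replicate 3 (-0.92, limma adjusted p 0.0698) or replicate 4 (-0.83, limma adjusted p 0.0849), the WT mice with the highest values. Nor did it pass in a fit of the Mixed mice alone (-1.11, limma adjusted p 0.0511) or with the acinar score (-1.02, limma adjusted p 0.0731). On C57, WT mice had 113, 106, 81.2, 150.2 and 67.8 TPM and Het mice 38.9 to 116 (median 80.4) TPM, and the difference of -0.37 had a 95% interval from -1.16 to 0.41. An antisense gene, D930015M05Rik, overlaps exons of Cry2 in the GENCODE M21 annotation. It had group means of 3.74 TPM or less, and whether the counting used strand is not given in the sources used here, so that reads of the pair cannot be told apart.

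Beside Per1 and Cry2, the immediate early genes, which cells switch on within minutes of a stimulus, stood at high levels that differed between mice. Their 9 members summed to 10051, 12067, 10575, 8364 and 5737 TPM in Mixed WT replicates 1 to 5, and to 4483 to 7156 TPM in Mixed Het. Mixed WT replicate 5 was the lowest of its group in this sum and also in Clock, Per1, Per2, Cry1, Cry2, Nr1d1 and Dbp, and the highest in Per3 and Tef. C57 WT replicate 5 was lowest of its group in the sum, at 4333 TPM, and in every member except Per3 and Nr1d1, so that its low values were not limited to Per1, Per2 and Cry2. In Mixed Het islets 4 of 9 passed lower (Fosb -1.79, Sik1 -0.89, Nr4a1 -0.69 and Junb -0.56, log2 differences), beside 13.5% of all genes, and on C57 1 of 9 did (Nr4a1 -0.80), beside 11.6%. With the mean log2 value of the 9 genes as a covariate, the Mixed difference was -0.60 for Per1 (limma adjusted p 0.0837), -0.55 for Cry2 (limma adjusted p 0.266) and -0.34 for Tef (limma adjusted p 0.148), and none of the 3 passed. Per2 passed on Mixed with this covariate, as did Nr1d1, Nr1d2 and Dbp. The covariate itself ran from 8.53 to 9.71 in Mixed WT and from 8.37 to 9.06 in Mixed Het mice. It thus partly follows genotype, and these fits cannot tell the part of the one from that of the other.

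Nr1d1, which encodes REV-ERB alpha, was lower in Het islets on both backgrounds. C57 WT mice had 213, 175, 173, 207 and 184 TPM, and C57 Het mice 63.1 to 161 (median 89.3) TPM. Mixed WT mice had 145, 135, 209, 265 and 104 TPM, and Mixed Het mice 42.1 to 82.9 (median 60.4) TPM. No Het mouse reached the lowest WT mouse of its background. The Het mean was 51.4% of WT on C57 and 35.4% on Mixed, with log2 differences of -1.02 (SE 0.22, limma adjusted p 0.00134) and -1.43 (SE 0.22, limma adjusted p 3.03e-05). The 2 differences were not shown to be unequal, since their difference of -0.41 had a 95% interval from -1.07 to 0.25. Nr1d1 shares exon sequence with Thra, a thyroid hormone receptor gene on the other strand. Thra did not pass on C57 (log2 difference 0.05) and was higher in Mixed Het (0.40, limma adjusted p 0.00598).

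Nr1d2, the gene of REV-ERB beta, was lower in Het on the Mixed background. In Mixed WT islets it read 34.7, 47.8, 65.3, 64.6 and 37.4 TPM, and in Mixed Het islets 20.4 to 28.8 (median 26.3) TPM, all below the lowest WT mouse. The Het mean was 52.1% of WT, a log2 difference of -0.88 (SE 0.19, limma adjusted p 0.00102). On C57, WT mice had 35.7, 40.7, 46.7, 45.1 and 24.9 TPM and Het mice 31.6 to 62.7 (median 45.6) TPM. The groups overlapped, and the difference of 0.21 had a 95% interval from -0.19 to 0.61.

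Dbp, a D-box activator whose mRNA has among the widest daily swings in mouse tissues, fell on both backgrounds. C57 WT mice had 62.3, 45.7, 55.1, 53.0 and 41.9 TPM. C57 Het mice had 19.2 to 46.4 (median 25.4) TPM, and 5 of 6 were below all WT mice. In this group replicates 3, 4 and 5 had 36.5, 46.4 and 30.6 TPM and the other 3 had 20.2, 19.5 and 19.2 TPM, and the same 3 mice were also highest for Nr1d1, at 100, 161 and 114 TPM. Mixed WT mice had 39.7, 49.9, 65.5, 69.0 and 35.0 TPM, and Mixed Het mice lay closely together at 16.2 to 20.1 (median 18.7) TPM, all below the lowest WT mouse. The Het mean was 55.7% of WT on C57 and 35.5% on Mixed. The log2 differences were -0.89 (SE 0.20, limma adjusted p 0.00176) and -1.40 (SE 0.20, limma adjusted p 1.2e-05). Sphk2, a lipid kinase gene whose exons overlap those of Dbp on the other strand, was also lower, by smaller amounts: its log2 differences were -0.32 (limma adjusted p 0.0113) and -0.72 (limma adjusted p 4.73e-06).

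Tef, which encodes a D-box factor related to DBP, had the smallest log2 difference among the members that passed. Mixed WT mice had 17.8, 16.6, 15.2, 16.9 and 22.4 TPM and Mixed Het mice 11.9 to 15.5 (median 12.9) TPM, with 5 of 6 Het mice below all WT mice. The Het mean was 74.5% of WT, a log2 difference of -0.39 (SE 0.15, limma adjusted p 0.0406). It did not pass in 7 of 22 fits that each left out 1 mouse (Mixed WT replicates 1, 4 and 5, and Mixed Het replicates 2, 4, 5 and 6), and without Mixed WT replicate 5 it was -0.31 (limma adjusted p 0.115). The call was also lost without the filter on low values (limma adjusted p 0.0791), with the acinar score (limma adjusted p 0.0779) and with the immediate early score (limma adjusted p 0.148). On C57 the WT mean was 21.6 TPM and the Het mean 20.7 TPM, a log2 difference of -0.08 with a 95% interval from -0.39 to 0.24. The antisense gene Gm17597, which overlaps exons of Tef, had group means of 0.253 TPM or less and was not tested. Per3, whose promoter window holds 2 matches to the motif that DBP and TEF bind, was the period gene with the smallest log2 difference on Mixed (-0.30, against -1.40 for Dbp). Per1 also holds a match to this motif and was at -1.23 on Mixed, and no window was available for Per2. The part of the motif in these differences was not tested.

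**Figure D2:**
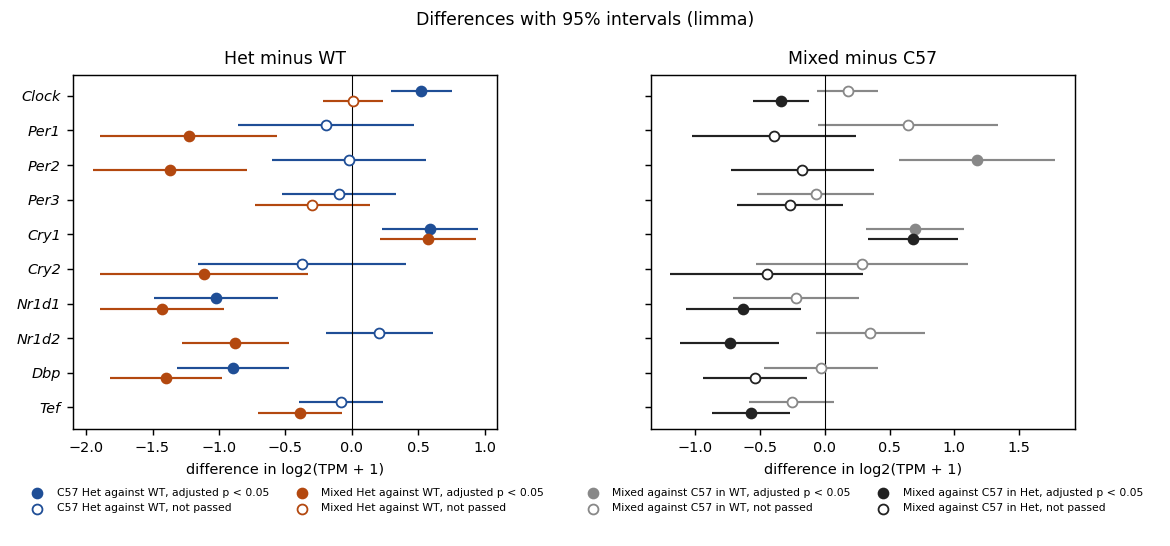
Differences in log2(TPM + 1) with 95% intervals from limma for the 10 clock genes, Het minus WT at left and Mixed minus C57 at right. Filled points passed an adjusted p of 0.05. At left, Cry1 lies at 0.59 on C57 and 0.57 on Mixed, and Per2 at -0.02 on C57 and -1.37 on Mixed.

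Whether the genotype difference itself differed between backgrounds was tested as an interaction, Mixed difference minus C57 difference. It passed for Nr1d2 (-1.08, 95% interval -1.65 to -0.51, limma adjusted p 0.0227), for Per2 (-1.35, -2.17 to -0.53, limma adjusted p 0.0410) and for Clock (-0.52, -0.84 to -0.20, limma adjusted p 0.0439). These are 3 of 10 members, all negative, where 2.74% of all genes tested were negative and 4.62% positive. With median-of-ratios scaling, 39.3% of all interaction calls were positive, against 62.8% on the deposited TPM. For the other 7 members the interaction did not pass, and the point values ran from -1.03 for Per1 to -0.02 for Cry1, whose interval was -0.53 to 0.50. The median over the 10 was -0.51, beside 0.02 over all genes.

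The 3 interactions differed in how firmly they held. Nr1d2 passed in each of the 22 fits that left out 1 mouse (highest limma adjusted p 0.0430) and did not pass without the filter on low values (limma adjusted p 0.0523). Per2 passed without C57 WT replicate 2 or 4, C57 Het replicate 2 or 3, Mixed WT replicate 1 or 5, or Mixed Het replicate 1 or 3, and did not pass in the other 14 such fits (highest limma adjusted p 0.0784). Clock passed without C57 WT replicate 2 or 4, C57 Het replicate 3, Mixed WT replicate 5, or Mixed Het replicate 1, 3 or 4, and did not pass in the other 15 (highest limma adjusted p 0.0792). Without the filter on low values, Per2 (limma adjusted p 0.0949) and Clock (limma adjusted p 0.0859) did not pass either. With the immediate early score Per2 (limma adjusted p 0.0631) and Clock (limma adjusted p 0.0725) were lost, and Clock was also lost with the acinar score (limma adjusted p 0.0573) and without the mean-variance trend (limma adjusted p 0.0503). Without Mixed WT replicate 5 the Per1 interaction passed as well, at -1.38 (limma adjusted p 0.0233).

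Between the backgrounds, Cry1 was higher on Mixed in both genotypes. In WT islets it averaged 10.2 ± 2.94 TPM (SD, n = 5) on Mixed and 5.77 ± 0.817 TPM (SD, n = 5) on C57, and every Mixed mouse was above every C57 mouse (log2 difference 0.69, SE 0.18, limma adjusted p 0.0160). This call did not hold without Mixed WT replicate 1 (0.56, limma adjusted p 0.0524), with the acinar score (0.59, limma adjusted p 0.0680) or with the immediate early score (0.56, limma adjusted p 0.102). In Het islets it averaged 15.4 ± 2.69 TPM (SD, n = 6) on Mixed and 9.42 ± 2.69 TPM (SD, n = 6) on C57 (0.68, SE 0.17, limma adjusted p 0.00607). Per2 was higher on Mixed in WT islets, at 247% of the C57 mean (log2 difference 1.17, SE 0.29, limma adjusted p 0.0113). When the fit held only the 10 WT mice, the limma adjusted p of Per2 was 0.118, and with the immediate early score its difference was 0.78 (limma adjusted p 0.1004). Per1 in WT islets was 0.64 (95% interval -0.05 to 1.34) and passed only when Mixed WT replicate 5 was left out (0.99, limma adjusted p 0.0206). In WT islets 2 of 10 members were thus higher and 0 lower, where 6.3% of all genes were higher and 4.99% lower. Of those calls over all genes 55.8% were higher, and 44.9% were when the most abundant genes were left out of the total.

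In Het islets 5 members differed between the backgrounds, and 4 of them were lower on Mixed, where 7.13% of all genes were lower and 13.3% higher. The share of calls that were higher fell from 65.2% to 47.6% when the most abundant genes were left out of the total. Nr1d2 averaged 26.0 TPM on Mixed and 45.2 TPM on C57, with no overlap between mice (log2 difference -0.74, SE 0.19, limma adjusted p 0.00720). Tef was lower by a log2 difference of -0.57 (limma adjusted p 0.00765), Nr1d1 by -0.63 (limma adjusted p 0.0405) and Clock by -0.34 (limma adjusted p 0.0228). The Nr1d1 call was lost in 8 fits that left out 1 mouse (C57 Het replicates 3, 4 and 5 and Mixed Het replicates 1, 2, 4, 5 and 6), with values down to -0.47 (limma adjusted p 0.113), and also without the filter on low values (limma adjusted p 0.0857) and with the acinar score (-0.59, limma adjusted p 0.0775). That of Clock was lost without C57 Het replicate 2 (-0.29, limma adjusted p 0.0591) and without Mixed Het replicate 2 (-0.32, limma adjusted p 0.0525) or 5 (-0.31, limma adjusted p 0.0615). Dbp, at -0.54 (limma adjusted p 0.0526), missed the threshold on the deposited scale and passed under median-of-ratios scaling (-0.58, limma adjusted p 0.0378), under quantile normalization and on a total that left out the most abundant genes. These comparisons share their mice with the genotype comparisons, so that one high group enters several of them.

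Several members varied together between mice of a group, and which pairs passed depended on the Mixed WT mice. Deviations of log2(TPM + 1) from the group mean were correlated over the 22 mice, for 55 pairs of the 10 members and Arntl, with permutation of mice within groups and Benjamini-Hochberg adjustment over the pairs. Of the 45 pairs among members 17 passed, all positive, and the median r was 0.37. Among 9863 other named genes with a mean of at least 5 TPM, the share with r over 0.5 was lowest for Dbp (3.21%) and highest for Clock (41.0%). It was 15.2% for Per3, 14.5% for Cry1, 13.8% for Per2, 11.1% for Per1 and 8.79% for Cry2. For Tef, Nr1d1 and Nr1d2 it was 4.91%, 3.91% and 3.70%. The tightest pair was Per1 and Cry2, with r 0.943 and rho 0.896 (permutation p 1e-05, the smallest that these permutations can give, adjusted 0.000183), and r 0.891 without the 2 mice farthest out in Per1. It was high in each group, from 0.896 in C57 WT to 0.993 in Mixed WT. Per1, Per2, Cry2, Nr1d1, Nr1d2 and Dbp were 6 genes of which all 15 pairs passed, from r 0.58 for Cry2 with Dbp to the value of Per1 with Cry2. Not all of these pairs were positive within each group. In Mixed Het mice Dbp had r -0.46 with Per1, -0.62 with Cry2, -0.11 with Nr1d1 and -0.67 with Nr1d2, and 0.38 with Per2. In C57 WT mice Nr1d1 with Nr1d2 had r -0.04. The other values of the 15 pairs within groups were positive. Nr1d1 and Dbp had r 0.805 and rho 0.792 (adjusted permutation p 0.00339), and r 0.693 without the 2 mice farthest out in Nr1d1. Without C57 Het replicate 4, 5 of these pairs did not pass: Per1 with Dbp, Per2 with Nr1d1, Per2 with Dbp, Cry2 with Dbp and Nr1d1 with Nr1d2 (highest adjusted permutation p 0.104, r 0.56). Cry2 with Dbp also did not pass by rho (0.531, adjusted permutation p 0.0733) or without C57 WT replicate 5, C57 Het replicate 2 or 5, or any 1 of the 5 Mixed WT mice (lowest r 0.48). Without the whole Mixed WT group, an alternative chosen after seeing the data, 21 of the 55 pairs passed, of which 12 had also passed over all mice. In that subset 6 of the 15 pairs of the 6 genes did not pass: Per1 with Dbp, Per2 with Nr1d1, Per2 with Dbp, Cry2 with Dbp, Nr1d1 with Nr1d2 and Nr1d2 with Dbp (adjusted permutation p 0.0506 to 0.373, r 0.31 to 0.70). Clock with Cry1 did not pass there either (r 0.44, adjusted permutation p 0.104). The 9 pairs that passed there and not over all mice were Tef with Per1, Cry2, Nr1d1, Nr1d2 and Dbp, Per3 with Cry2, Nr1d1 and Dbp, and Clock with Per2, and Dbp with Tef was the highest of these at r 0.86 (adjusted permutation p 0.00671).

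Per3 and Tef were also closely paired. Their r was 0.881 and rho 0.852 (adjusted permutation p 0.000183), with r 0.850 without the 2 mice farthest out in Per3, and from 0.845 to 0.982 within the groups. Dbp and Tef, which bind the same motif, had r 0.51 over all mice (adjusted permutation p 0.152). Within groups this pair read 0.984 in C57 WT and 0.920 in C57 Het, and on Mixed -0.81 (WT) and -0.06 (Het). In Mixed WT islets Tef and Per3 were highest in replicate 5, the mouse with the lowest Dbp. Tef had r 0.84 to 0.94 with each of the 6 genes above in C57 Het, and negative values with each in Mixed WT (-0.90 to -0.70). Among genes of the positive arm and Cry1, the following pairs passed by r. Cry1 and Arntl had r 0.760 and rho 0.723, Clock and Arntl r 0.608 and rho 0.591, and Clock and Cry1 r 0.533 and rho 0.521. An r over 0.5 was common for Clock. Its median r was 0.41 over 9863 named genes with a mean of at least 5 TPM, and 41.0% of them had r over 0.5. For Clock and Cry1 and for Clock and Arntl the adjusted p was over 0.05 under median-of-ratios scaling (r 0.39 and 0.46) and under quantile normalization (0.40 and 0.46). The rho of Clock and Cry1 did not itself pass (adjusted permutation p 0.0578). Clock and Cry1 also did not pass without C57 Het replicate 3 (r 0.45) or Mixed WT replicate 1 (r 0.49). Cry1 had its most negative r with Dbp, -0.50, which did not pass (adjusted permutation p 0.155).

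**Figure D3:**
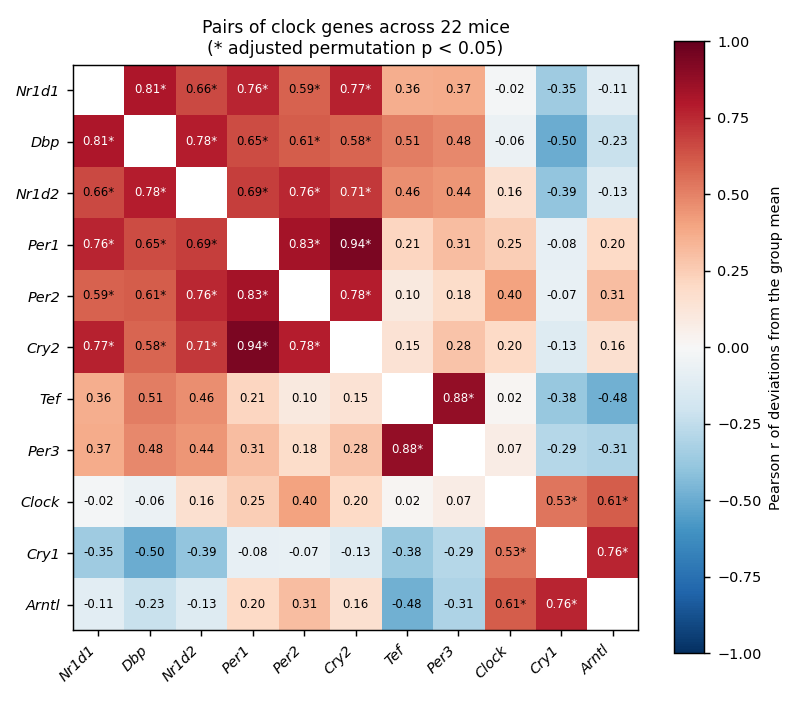
Pearson r between genes of deviations of log2(TPM + 1) from the group mean over 22 mice, for the 10 clock genes and Arntl, with colour from -1 (blue) to 1 (red) and a star for an adjusted permutation p under 0.05. The block of 6 genes from Nr1d1 to Cry2 holds the starred values from 0.58 to 0.94, Tef and Per3 form a pair at 0.88, and Clock, Cry1 and Arntl are starred among themselves.

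For 9 of the 10 members, mice of one group differed more than in the middle of all genes tested. The SD of log2(TPM + 1) within groups had a median of 0.36 over the 10 members, beside 0.20 over all genes tested. Cry2 (0.68), Per1 (0.58) and Per2 (0.50) were above at least 92.7% of the genes tested, whereas Clock (0.18) was below the middle. By group, the median SD of the members was 0.32 (WT) and 0.40 (Het) on C57, beside 0.23 and 0.15 over all genes, and 0.42 and 0.21 on Mixed, beside 0.20 and 0.18. Mixed Het mice were closest to each other in Dbp (SD 0.12), Per2 (0.12) and Tef (0.13), with lower SDs in each than in the other 3 groups.

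The genes most like each member were those, outside the 10, with the highest r of deviations from the group mean over the 22 mice, among 9863 named genes with a mean of at least 5 TPM. For Cry2 and Nr1d1 the list held Ciart, a repressor of the clock loop, at r 0.906 and 0.896, and for Nr1d1 also Bhlhe41, another E-box repressor, at 0.802. Wee1, a cell cycle kinase gene known as a clock output, was among the 2 most like Per2 (r 0.942) and Nr1d2 (0.790). Per1 was most like Plk3 (0.953) and Prr3 (0.933), Cry2 like Cnn3 (0.931), and Per2 like Pi4k2a (0.943). Plekhg3 was listed for both Per3 (0.841) and Tef (0.708). Clock was most like Togaram1 (0.946) and Ecpas (0.941), but 41.0% of the candidate genes had r over 0.5 with Clock, beside 3.91% for Nr1d1 and 3.21% for Dbp. All of these values share the same 22 libraries and are descriptions.

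Arntl and Npas2 peak at about the opposite time of day to Dbp, Nr1d1, Nr1d2 and Per3 in mouse tissues, and the level of one arm against the other is therefore given per mouse as a value without a test. The mean log2 level of the 4 genes minus that of the 2 was, on C57, 2.77 to 3.60 (median 3.35) in WT and 1.86 to 3.59 (median 2.69) in Het mice. On Mixed it was 2.35 to 3.21 (median 2.90) in WT and 1.45 to 1.85 (median 1.52) in Het mice. Every Mixed Het mouse was below every mouse of the other 3 groups, but the highest (1.853) was only just below the lowest C57 Het mouse (1.862). Dbp, Nr1d1 and Nr1d2 were already given above as lower in Mixed Het than in Mixed WT, so the value in part restates those differences. C57 Het mice spread over the widest range, with replicates 3, 4 and 5 at 3.33, 3.59 and 2.96 and replicates 1, 2 and 6 at 2.16, 1.86 and 2.42. The part of the hour of collection in these values was not tested.

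**Figure D4:**
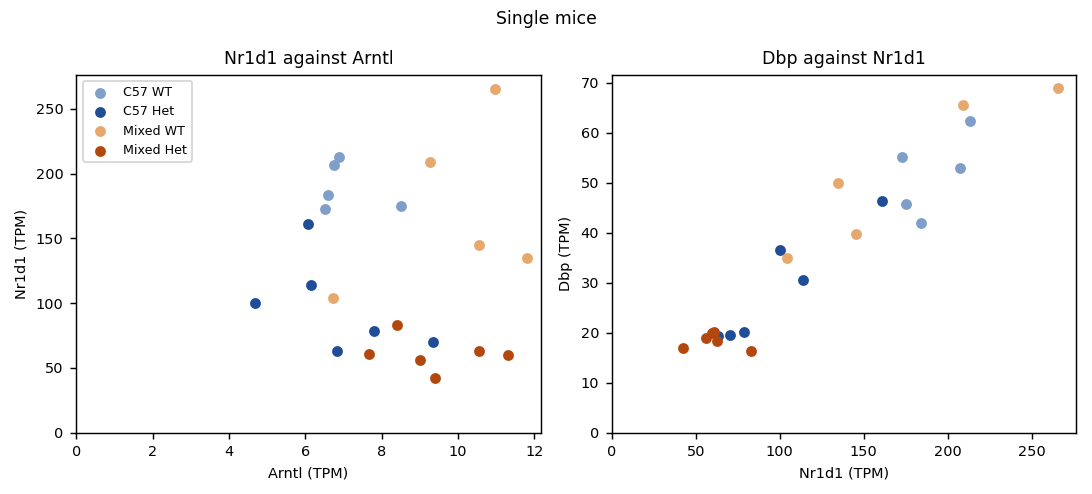
TPM of Nr1d1 against Arntl (left) and of Dbp against Nr1d1 (right) on linear axes, 1 point per mouse, coloured by group. Mixed Het mice lie at 42.1 to 82.9 TPM of Nr1d1 and 16.2 to 20.1 TPM of Dbp, and C57 Het mice extend from that region up to the WT mice.

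Other genes of the clock network were read from a list of 23, of which 22 were tested and Rorb was not. On C57 6 of 22 passed, all higher in Het, or 27.3%, near the 26.4% of all genes that were higher. On Mixed 6 were higher (27.3%, beside 30.7% of all genes) and 5 lower (22.7%, beside 13.5%). Among the loop partners, the REV-ERB opponent Rora (-0.49) and the E-box repressors Bhlhe40 (-0.82), Bhlhe41 (-0.63) and Ciart (-1.44) fell in Mixed Het islets, as log2 differences. Ciart averaged 28.7 TPM in WT islets on Mixed, against 9.08 TPM in Het (SE 0.32, limma adjusted p 0.000983). The paralogues Arntl2 (0.69) and Npas2 (0.50) of the 2 activators rose there, from low levels of 1.29 and 2.80 TPM. Hlf, the third D-box factor of the family of Dbp and Tef, rose on both backgrounds, by 0.54 on C57 (limma adjusted p 0.00774) and 0.43 on Mixed (limma adjusted p 0.0238), at group means of 1.63 to 2.95 TPM.

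The list also held 9 genes that modify or degrade the PER and CRY proteins. Csnk1d, a kinase of PER, was higher in Het on both backgrounds (log2 differences 0.29 and 0.27), as was Fbxw11, a ubiquitin ligase subunit for PER (0.57 and 0.31). Gsk3b passed on C57 only (0.48, and 0.22 on Mixed), and Usp2, a deubiquitinase with a daily rhythm, on Mixed only (-1.08, and -0.52 on C57). The interaction passed for neither gene. Of the outputs, Noct, which encodes nocturnin, was higher in Het: C57 WT mice had 12.1, 12.8, 12.3, 22.3 and 11.2 TPM and C57 Het mice 21.9 to 46.8 TPM, a log2 difference of 1.37 (SE 0.22, limma adjusted p 9.4e-05), and on Mixed it was 0.55 (limma adjusted p 0.0494). Nampt, an enzyme of NAD synthesis, passed on C57 (0.37) and not on Mixed (-0.17), and its interaction of -0.53 passed (limma adjusted p 0.0444). It was the only network gene of the 22 to do so, where leaving out 1 mouse gave 0 genes in 14 of 22 fits and 6 without Mixed WT replicate 5. Between the backgrounds, Bhlhe40 and Wee1 were among the genes that were higher and Btrc was lower on Mixed in WT islets, and in Het islets Arntl and Npas2 were among those higher, with Rora and Btrc lower. In WT islets 3 of 22 were higher on Mixed (13.6%, beside 6.3% of all genes) and 1 lower (4.5%, beside 4.99%). In Het islets 3 were higher (13.6%, beside 13.3%) and 2 lower (9.1%, beside 7.13%), near the shares of all genes. The count of 4 in WT islets was 9 without Mixed WT replicate 5, 7 without C57 WT replicate 2, and 2 without Mixed WT replicate 2, 3 or 4. That of 5 in Het islets was 3 to 6 over such fits.

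**Figure D5:**
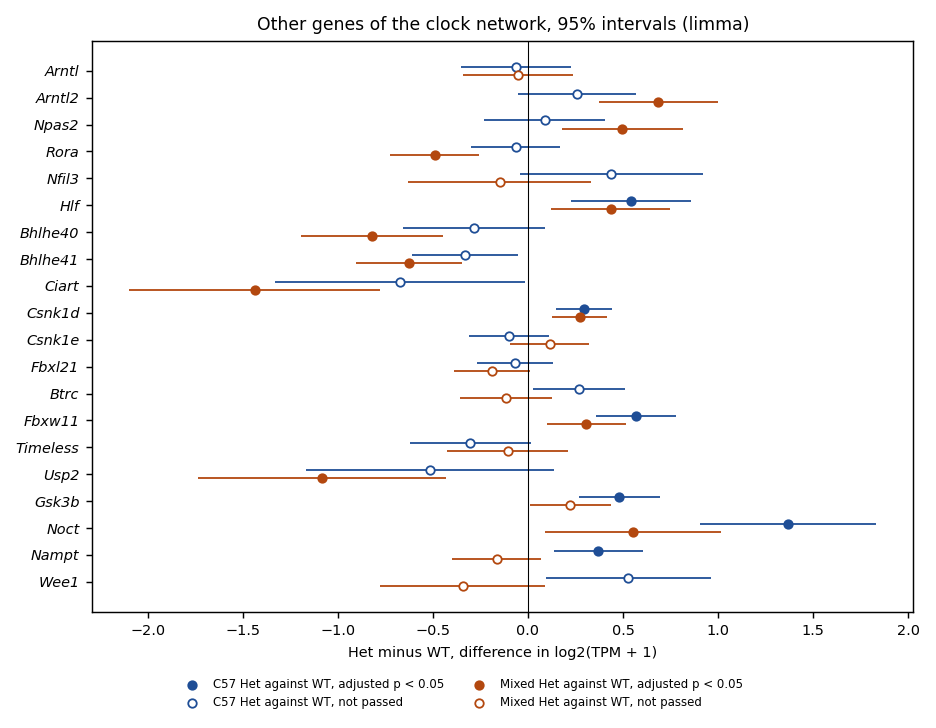
Het minus WT differences in log2(TPM + 1) with 95% intervals from limma for the other clock network genes reported here, on C57 (blue) and Mixed (orange), with filled points for an adjusted p under 0.05. Noct lies farthest to the right, at 1.37 on C57, and Ciart farthest to the left, at -1.44 on Mixed.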

How the data were processed

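Polyadenylated RNA of isolated islets was sequenced from 22 mice, 1 library per mouse. The authors deposited one table of TPM, which sums to the same total in each sample. STAR 2.7.10b, MultiQC 1.7 and the genome build mm39 are named per the submitters' processing notes, and the counting tool, annotation and strand setting are not given in the sources used here. TPM divides by a total, so a fall of very abundant transcripts raises other values.

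Log2(TPM + 1) was fitted with limma 3.58.1 (R 4.3.3, eBayes with trend) with 4 group means over 22 samples, on 16756 rows with at least 1 TPM in at least 5 samples, which understates changes of low genes. Adjusted p-values are Benjamini-Hochberg over all rows tested, with a threshold of 0.05, and each difference with an adjusted p in the text is from this fit or the alternative named. Of repeated symbols the row with the highest mean was used. Pair correlations used 100000 permutations of samples within groups. Promoters came from RefSeq (GRCm38.p6), used for motifs only, since the table's build differs. The scripts were tested on simulated data.

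The members and lists were chosen with earlier results of these data known. All 10 members, the listed network, time-cue and marker genes, and for each member the 2 most similar other genes could be named, and 4 overlapping genes were added after their values were seen. Replicate numbers follow accession order and only name a mouse. The library numbers run through the groups in order, so library order and group cannot be told apart. Some listed genes are not reported here.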

Additional observations from a re-analysis of the deposited data

Results flagged for a closer look

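For 4 genes of the clock network the genotype difference itself differed between the backgrounds by the interaction test of limma, Mixed minus C57, on the log2(TPM + 1) scale. Clock had -0.52, from a Het minus WT difference of 0.52 on C57 and 0.01 on Mixed. Per2 had -1.35, from -0.02 and -1.37. Nr1d2 had -1.08, from 0.21 and -0.88. Nampt had -0.53, from 0.37 and -0.17, and its adjusted p was 0.0444. None of the 40 groups of member values held a mouse that stood apart by Dixon's test, of which chance would give about 1 in 20.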

How the results depend on the processing

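All alternatives listed here were run on the 10 clock genes, with median-of-ratios scaling, quantile normalization and single omissions also on the network list. Of the members' differences, 1516 kept direction and side of the threshold, 72 no longer passed, 12 newly passed and 40 changed sign, and the cause was not tested. Every sign change was of a difference that had not passed. With the immediate early score as covariate, Per1 on C57 (Het minus WT) was 0.075, Per2 there 0.16, the Cry1 interaction 0.071 and Cry2 between WT groups -0.23. With the acinar score, Per2 on C57 was 0.21, Clock on Mixed -0.021, the Cry1 interaction 0.028 and Dbp between WT groups 0.069. Sample weights gave -0.027 for Nr1d2 on C57 and -0.067 for Clock on Mixed, and Clock on Mixed was -0.12 under median-of-ratios scaling, -0.090 under quantile normalization and -0.11 on a total without the most abundant genes.

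Leaving out each mouse in turn gave, on C57, -0.26 to 0.11 for Per2, -0.23 to 0.070 for Per3 and -0.20 to 0.023 for Tef. It gave -0.042 to 0.050 for Clock on Mixed, -0.13 to 0.12 for the Cry1 interaction, and -0.20 to 0.10 for Per3 and -0.14 to 0.10 for Dbp between WT groups.

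Counts of members that passed moved as follows. On Mixed, 8 became 5 with the acinar score, 5 with the immediate early score and 5 at an adjusted p of 0.01. For the interaction, 3 became 0 without the filter, 1 with the immediate early score and 0 at 0.01, and lay between 1 and 4 over the omissions. Between WT groups, 2 became 1 in a fit of those samples alone, 1 with the acinar score, 0 with the immediate early score and 0 at 0.01, and lay between 1 and 3 over the omissions. Between Het groups, 5 became 3 at 0.01 and lay between 3 and 6. The network count of 1 for the interaction became 3 under median-of-ratios scaling and 2 under quantile normalization, and lay between 0 and 6, and that of 4 between WT groups lay between 2 and 9. The 5 network genes between Het groups lay between 3 and 6. Network scalings and omissions were chosen after seeing the data.

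No paired analysis was possible because the labels give no replicate numbers that groups share. TPM keeps no depth, so no limit of detection can be given.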

Other observations

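Genes that answer to glucocorticoids, a signal that sets the clock of many tissues and induces Per1, were read as a second set of time cues. Of 4 genes, Fkbp5, Tsc22d3 and Sgk1 were tested and Zbtb16 was not. Fkbp5, a chaperone induced by the glucocorticoid receptor, was higher in Mixed Het islets, with a mean of 22.4 TPM against 13.4 TPM in Mixed WT (log2 difference 0.67, SE 0.22, limma adjusted p 0.0150), and read 0.37 on C57 (limma adjusted p 0.182). Sgk1, a kinase induced by the same receptor, was lower in C57 Het islets, with 24.8 TPM against 40.7 TPM (-0.59, limma adjusted p 0.0418), and read -0.29 on Mixed. Tsc22d3 did not pass, at 0.04 and 0.26. On Mixed 1 of the 3 tested genes was thus higher, beside 30.7% of all genes, and on C57 1 was lower, beside 11.6%. The 4 genes summed to 53.3 to 72.6 TPM in Mixed WT and 60.1 to 85.5 TPM in Mixed Het, and these ranges overlapped. The part of this signal in the Per1 values was not tested. Atf3, a stress-induced gene of the immediate early list, differed between backgrounds: it averaged 211 TPM in C57 WT and 484 TPM in Mixed WT (log2 difference 1.24, limma adjusted p 0.00945), and 244 TPM in C57 Het and 472 TPM in Mixed Het (0.98, limma adjusted p 0.0141).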
